A study of Mus musculus with 8 samples.

Results

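Hepatic de novo lipogenesis was followed here through 10 genes of fatty acid and triglyceride synthesis, Fasn, Scd1, Acaca, Acly, Elovl6, Srebf1, Pnpla3, Me1, Gpam and Thrsp. They were taken by name from the 23282 rows of the liver count tables, and all 10 had a row. The livers came from C57BL/6 mice that were 4 weeks old on purchase and had no stated genetic change. The control group received saline (2 libraries), the endotoxemic group received 25 mg/kg lipopolysaccharide (LPS) by intraperitoneal injection (4 libraries), and the LGK974 group (2 libraries) is described by the study as given LPS together with LGK974, an inhibitor of Porcupine, the enzyme that Wnt ligands need for secretion. The labels of the LGK974 libraries give neither its dose nor LPS. By the study's methods, LGK974 was in most experiments injected ahead of LPS, and livers were taken within hours of the LPS injection. No group received LGK974 without LPS, so the LGK974 libraries were compared with the other groups as a combined treatment.

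In de novo lipogenesis the liver turns carbohydrate into fat. Citrate leaves the mitochondrion and is split into acetyl-CoA, which is carboxylated to malonyl-CoA and built into palmitate at the expense of NADPH; palmitate is then elongated, desaturated and esterified to glycerol. Insulin and the transcription factor SREBP-1c, with the sugar-sensing factor ChREBP, are the best known activators of these genes in hepatocytes.

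Some features of the libraries bear on every value below. Endotoxemic libraries 1 and 3 were identical on every row, as were libraries 2 and 4, so the group was counted as 2 libraries and 6 distinct libraries entered the fit. Total counts ran from 9142116 to 15222439, and 3 counts, the least taken as detected, correspond to 0.197 to 0.328 CPM (read counts scaled to the effective library size). The labels call all mice male, but Xist, the X-inactivation transcript, had 1171 to 3115 counts in the control and endotoxemic libraries but only 3 and 7 in those of the LGK974 group, whereas the Y-linked Ddx3y was at 0 in the former and at 1755 and 1392 in the latter. The 7 male-biased liver transcripts examined summed to 502 to 780 CPM in the control and endotoxemic libraries and to 7953 and 5067 CPM in the LGK974 libraries. The 8 female-biased ones summed to 1176 and 1232 CPM in the control, 140.5 and 131.3 CPM in the endotoxemic and 10.6 and 47.3 CPM in the LGK974 libraries. With LPS, 7 of these 8 were lower than in the control group. In both comparisons that involve the LGK974 group, the treatment and the sex-linked difference therefore cannot be told apart. The labels do not say whether each library came from a separate mouse, so the p-values measure only the spread between these libraries, which may be technical. In bulk liver RNA, fewer cells of a type and less RNA per cell cannot be told apart either. Hepatocyte markers were abundant in every library, with 210581 to 914224 counts of Alb (albumin).

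The row symbols were compared with gene order on the mouse genome (RefSeq gene positions), since 579 of 23134 placed rows carried a symbol more than 2000000 bases out of order. All 10 lipogenic genes lay in order. Gpam was the exception among their neighbours: the row before it carried Elane, a neutrophil elastase gene of chromosome 10 (chr10:79886312-79888216), whereas the row after it carried its true neighbour Tectb on chromosome 19. Srebf1 shares 109 bases at its 3′ end with Rai1 on the opposite strand, and whether the counting used strand is not given in the sources used here. The Rai1 row held 92 and 180 counts for the control group, 40 and 33 for the endotoxemic group and 67 and 48 for the LGK974 group, against 78 to 1253 counts on the Srebf1 row. Pnpla3 shares 5323 bases with the same-strand transcript Gm49513, which has no row of its own.

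For the promoters of these genes, RefSeq (GRCm38.p6) windows from 250 bases before to 50 bases after the start site were available for 9 of the 10 genes, 13 windows in all. Both strands were searched for the sterol regulatory element TCACNCCAC, the E-box CACGTG, the NF-Y box CCAAT and the GC box GGGCGG, whose letters do not contain one another. In each gene's first window, the sterol element and the E-box had no match in these exact letters, compared with 1.22% and 7.24% of 27025 mouse promoters of the same length. The NF-Y box was matched in 6 of 9 windows (37.9% of all promoters) and the GC box in 3 of 9 (35.9%). A match is a description of the sequence only. The start site of the Acaca window, 84195438, lies inside the gene (chr11:84129672-84401651), so that window is not at its outermost 5′ end. Of the 250 upstream bases, 180 for Thrsp, 39 for Me1 and 31 for Elovl6 overlapped an annotated untranslated region. The 250 bases upstream of 3 genes are shown, with NF-Y boxes in capitals, as examples: Fasn, whose window holds 3 NF-Y boxes at −90, −62 and −59 (chr11:120824548-120824797, minus strand); Srebf1, whose window 3 holds 1 at −30 (chr11:60210472-60210721, minus strand); and Gpam, with 1 at −74 (chr19:55127239-55127488, minus strand).
Fasn: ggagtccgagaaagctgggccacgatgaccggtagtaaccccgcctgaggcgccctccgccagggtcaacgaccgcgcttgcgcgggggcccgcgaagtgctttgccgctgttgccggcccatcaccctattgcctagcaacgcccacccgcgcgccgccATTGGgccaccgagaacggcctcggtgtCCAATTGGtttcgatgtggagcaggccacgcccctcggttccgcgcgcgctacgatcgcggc
Srebf1: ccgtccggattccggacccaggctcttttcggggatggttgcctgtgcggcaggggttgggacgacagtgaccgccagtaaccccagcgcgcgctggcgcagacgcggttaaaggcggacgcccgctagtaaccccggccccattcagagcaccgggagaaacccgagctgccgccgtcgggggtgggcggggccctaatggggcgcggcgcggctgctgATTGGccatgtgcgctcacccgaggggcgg
Gpam: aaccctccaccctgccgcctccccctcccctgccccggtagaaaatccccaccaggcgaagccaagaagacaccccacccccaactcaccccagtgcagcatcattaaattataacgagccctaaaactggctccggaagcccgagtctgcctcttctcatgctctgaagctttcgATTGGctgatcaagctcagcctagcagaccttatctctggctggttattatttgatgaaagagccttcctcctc

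Srebf1 (chr11:60199089-60222581) encodes SREBP-1, the transcription factor that activates most of the genes described here. Its level was 62.8 and 81.9 CPM with saline, 13.8 and 8.31 CPM with LPS and 15.4 and 7.24 CPM in the LGK974 group. Every endotoxemic and LGK974 library lay below both control libraries, and the 2 treated groups overlapped. Srebf1 was 6.56-fold lower in the endotoxemic than in the control group (log2 fold change −2.71, SE 0.38, edgeR adjusted p = 0.000508) and 6.41-fold lower in the LGK974 group (−2.68, SE 0.38, edgeR adjusted p = 0.000685). Between the LGK974 and endotoxemic groups the log2 difference was 0.03, with a 95% interval from −0.82 to 0.89 (edgeR adjusted p = 0.97), so a difference of either sign within that range was not resolved.

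Acly and Me1 supply the substrates. Acly (chr11:100476353-100528000), the ATP citrate lyase that makes cytosolic acetyl-CoA, had 78.9 and 80.1 CPM in the control, 26.2 and 20.9 CPM in the endotoxemic and 43.1 and 55.4 CPM in the LGK974 libraries. The 3 groups did not overlap, with the LGK974 libraries in between. Acly fell 3.38-fold in the endotoxemic group (log2 fold change −1.76, SE 0.22, edgeR adjusted p = 0.000257) and was 2.09-fold higher in the LGK974 than in the endotoxemic group (1.07, SE 0.22, edgeR adjusted p = 0.0264), while remaining 1.61-fold below the control group (−0.69, SE 0.21, edgeR adjusted p = 0.0333). Me1 (chr9:86581371-86695953), the cytosolic malic enzyme and a source of NADPH, showed 81.3 and 75.1 CPM in the control, 33.4 and 32.0 CPM in the endotoxemic and 41.7 and 51.2 CPM in the LGK974 libraries. The order of groups was that of Acly, again without overlap. Me1 was 2.39-fold lower in the endotoxemic group (log2 fold change −1.26, SE 0.20, edgeR adjusted p = 0.000986) and, relative to the control group, 1.68-fold lower with LGK974 (−0.75, SE 0.20, edgeR adjusted p = 0.0164). Its log2 difference of 0.51 between the LGK974 and endotoxemic groups did not pass (95% interval 0.06 to 0.95, edgeR adjusted p = 0.169).

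Acaca and Fasn carry out the synthesis itself. Acaca (chr11:84129672-84401651), acetyl-CoA carboxylase 1, which forms malonyl-CoA in the committed step, was at 39.9 and 34.3 CPM with saline, 7.75 and 6.72 CPM with LPS and 15.3 and 12.9 CPM in the LGK974 group. Again no 2 groups overlapped and the LGK974 libraries lay in between. The fall in the endotoxemic group was 5.12-fold (log2 fold change −2.36, SE 0.25, edgeR adjusted p = 8.59e-05), and in the LGK974 group it was 2.62-fold (−1.39, SE 0.23, edgeR adjusted p = 0.00185). Between the LGK974 and endotoxemic groups Acaca differed by 0.96 on the log2 scale (95% interval 0.41 to 1.52), which just missed the threshold of 0.05 (edgeR adjusted p = 0.0547).

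Fasn (chr11:120805846-120824547), the fatty acid synthase that assembles palmitate, was expressed at 209 and 194.5 CPM with saline and at 118.5 and 113 CPM with LPS. The LGK974 libraries had 229.5 and 71.3 CPM, the highest and the lowest of the 6. Fasn was 1.74-fold lower in the endotoxemic than in the control group and the groups did not overlap, but with the spread shared across the 3 groups the difference did not pass (log2 fold change −0.80, 95% interval −1.77 to 0.16, edgeR adjusted p = 0.158).

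Elovl6 and Scd1 modify the newly made chain. Elovl6 (chr3:129532355-129638495), which lengthens palmitate to stearate, measured 53.1 and 54.7 CPM in the control, 35.9 and 40.9 CPM in the endotoxemic and 26.3 and 29.8 CPM in the LGK974 libraries. It was the only one of the 9 tested genes in which both LGK974 libraries lay below all 4 of the others. The 1.92-fold fall against the control group passed (log2 fold change −0.94, SE 0.20, edgeR adjusted p = 0.00556). Neither the difference between endotoxemic and control libraries (−0.49, SE 0.20, edgeR adjusted p = 0.0698) nor that between LGK974 and endotoxemic libraries (−0.45, SE 0.20, edgeR adjusted p = 0.207) did. Scd1 (chr19:44394455-44407879), the main liver desaturase that makes oleate from stearate, was the most abundant of the 10 genes, with 639 and 792 CPM in the control, 811.5 and 1182 CPM in the endotoxemic and 1144 and 340 CPM in the LGK974 libraries. It was the only tested gene of the 9 with a higher mean in the endotoxemic than in the control group (997 ± 262 against 715 ± 108 CPM, SD, n = 2), and the difference did not pass (log2 fold change 0.48, 95% interval −0.56 to 1.52, edgeR adjusted p = 0.43). Because libraries were made from the 3′ ends of transcripts, CPM should not scale with transcript length. Whether levels can otherwise be set side by side between genes was not tested.

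Gpam and Pnpla3 act on glycerolipids. Gpam (chr19:55067268-55127238), the mitochondrial acyltransferase that adds the first fatty acid to glycerol-3-phosphate, was low throughout, with 37 and 43 counts after saline (3.43 and 2.81 CPM), 2 and 2 counts after LPS (0.218 and 0.213 CPM) and 33 and 38 counts in the LGK974 group (2.49 and 2.57 CPM). The endotoxemic libraries stood at or under the level of 3 counts, and the gene entered the test only through the other groups. Summed over libraries, 4 counts against 80 gave a ratio of 14.2 between control and endotoxemic libraries (95% counting interval 5.34 to 53.5), and 71 against 4 gave a ratio of 11.7 between LGK974 and endotoxemic libraries (4.39 to 44.3). Both intervals cover counting error only. Since the gene was kept only through the groups in which it was high, its edgeR calls against the endotoxemic group are not counted as support. Between the LGK974 and control groups, both above that level, no difference was detected (log2 fold change −0.30, 95% interval −1.41 to 0.82, edgeR adjusted p = 0.681).

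Pnpla3 (chr15:84167837-84187236), a lipid droplet protein with acyl hydrolase activity, had 6 and 2 counts in the control, 10 and 6 in the endotoxemic and 1 and 3 in the LGK974 libraries. It did not pass the filter on low counts and is the one member of the 10 left untested. The summed counts gave a ratio of 2.81 between endotoxemic and control libraries (95% counting interval 1.14 to 7.59) and of 0.165 between LGK974 and endotoxemic libraries (0.0403 to 0.513), but without the filter neither difference passed (edgeR adjusted p = 0.529 and 0.398).

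Thrsp (chr7:97412938-97417730), a small protein that responds to thyroid hormone and carbohydrate and promotes lipogenesis, had 205 and 173 CPM in the control and 101 and 96.0 CPM in the endotoxemic libraries. The LGK974 libraries had 493 and 84.3 CPM and, like those of Fasn, were the highest and the lowest of all 6. The lower level in the endotoxemic group (log2 fold change −0.94, 95% interval −2.29 to 0.42, edgeR adjusted p = 0.237) did not pass.

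**Figure D1:**
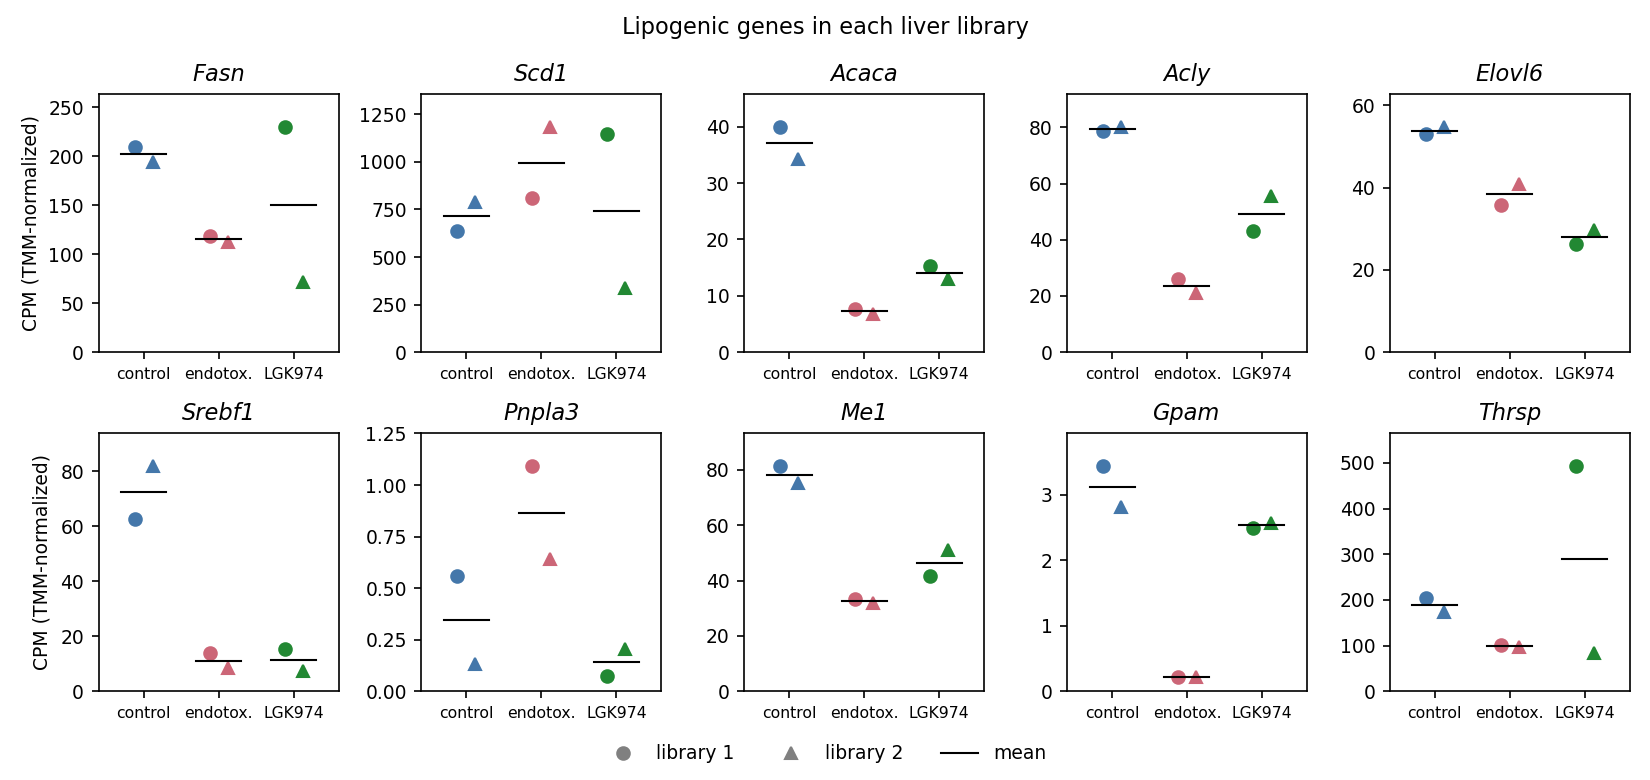
Level of each of the 10 genes in every distinct library, in CPM after TMM normalization on a linear axis that starts at 0; circles are library 1, triangles library 2 and bars the mean of a group. Srebf1, Acaca, Acly, Me1, Elovl6, Fasn, Thrsp and Gpam are lower in both endotoxemic libraries than in both control libraries. Fasn, Scd1 and Thrsp are far apart in the LGK974 group (229.5 and 71.3 CPM for Fasn).

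For the effect of LPS, 4 of the 8 genes tested apart from Gpam fell in the endotoxemic group (Srebf1, Acaca, Acly and Me1) and 0 rose, also with at least 10 counts required in every library, beside 23.0% of all 12701 tested genes that fell and 20.4% that rose (43.4% in either direction). With Gpam included, edgeR and DESeq2 each gave 5 downward and 0 upward, and at an unadjusted p below 0.05 edgeR gave 6 downward and 0 upward (51.3% of all genes in either direction). The median log2 fold change was −1.10 over the 8 genes and 0.01 over all genes. None of the 8 had overlapping groups, a property that 77.1% of all tested genes shared. The 4 calls held in all 15 alternative fits. When the LGK974 libraries were left out of the fit and the spread was taken from the 2 groups compared, the count, Gpam included, rose to 8, adding Fasn (log2 fold change −0.77, edgeR adjusted p = 0.000771), Thrsp (−0.90, 0.000391) and Elovl6 (−0.46, 0.0339), and Scd1 passed as higher (0.51, 0.0377). Over all alternatives the adjusted p of these 4 genes in edgeR or DESeq2 ranged from 0.000771 to 0.362 for Fasn, from 0.000391 to 0.466 for Thrsp, from 0.0049 to 0.402 for Elovl6 and from 0.0377 to 0.841 for Scd1.

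Markers of other cell types and of hepatocytes moved with this comparison. Of 6 hepatocyte markers, 4 fell and 1 (Fga, an acute phase protein) rose, and their summed level was 75360 to 107400 CPM in the control, 30280 to 47210 CPM in the endotoxemic and 32440 to 35260 CPM in the LGK974 libraries; 1 of the 4, Serpina1a, sat on a row out of genomic order. Alb itself fell by 1.17 on the log2 scale (edgeR adjusted p = 0.0138). The 5 measured neutrophil markers summed to 7.39 to 9.10 CPM in the control, 135 to 159 CPM in the endotoxemic and 86.0 to 89.8 CPM in the LGK974 libraries, and 4 of them rose with LPS. The S100a8 and S100a9 rows were out of genomic order; S100a9 was one of the 4 and held 74.9 and 84.9 CPM of the sums in the endotoxemic libraries, and S100a8 was not. The other 3 were in order. Retnlg rose by 3.11 on the log2 scale, whereas Mmp8 (0 and 7 control counts, 381 and 493 with LPS) and Csf3r (0 and 3, then 20 and 9) entered the test only through the groups in which they were high. The 5 monocyte markers summed to 14.2 to 14.6, 163 to 193 and 129.5 to 143 CPM in the same order, and 2 of them rose, Plac8 and Ly6c2, both in order; Ccr2 and Chil3 sat on rows out of order. Kupffer cell markers summed to 194 to 201, 109 to 137 and 81.7 to 110.1 CPM, with 4 of 6 lower and 1 higher with LPS, and 1 of the 6, Cd5l, on a row out of order. The Cd5l row held 110.1 and 98.9 CPM of the control sums. Marco, the marker that rose, held 96.6 and 74.5 CPM of the endotoxemic sums and 60.8 and 97.2 CPM of the LGK974 sums. Sinusoidal endothelium markers summed to 167 to 177, 367 to 387 and 424 to 521 CPM (2 of 5 lower, 1 higher), stellate cell markers to 401 to 414, 529 to 579 and 452 to 544 CPM (3 of 5 lower, 1 higher), and cholangiocyte markers to 13.8 to 15.3, 74.6 to 80.6 and 29.6 to 72.5 CPM (1 of 4 tested lower, 1 higher). The part of these shifts in the falls of the lipogenic genes was not tested.

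For the LGK974 group against the endotoxemic group, 1 of the 8 genes tested apart from Gpam, Acly, passed upward and 0 downward, also with at least 10 counts required in every library, beside 2.80% of all tested genes upward and 2.82% downward (5.62% in either direction). With Gpam included, edgeR gave 2 upward, DESeq2 gave 3 with Acaca as well, both gave 0 downward, and at an unadjusted p below 0.05 edgeR gave 5 higher and 1 lower (22.9% of all genes in either direction). The median log2 difference was 0.44 over the 8 genes and 0.03 over all genes, and 4 of the 8 had groups that did not overlap (52.5% of all tested genes). The call of Acly needed both endotoxemic libraries: its adjusted p in edgeR was 0.142 without endotoxemic library 1, 0.243 without library 2 and 0.069 with the fit restricted to these 2 groups. Over all alternatives it ranged from 0.000759 to 0.243, and the log2 difference stayed between 0.87 and 1.24. A fit that leaves 1 library in a group assumes that it varies like the other groups. The endotoxemic libraries enter both this comparison and that with the control group, so a low endotoxemic value acts on both. Alb differed by −0.37 on the log2 scale in this comparison (edgeR adjusted p = 0.509), and the summed hepatocyte markers overlapped between the 2 groups. Of the other markers, 2 of 6 of Kupffer cells and 1 of 5 of sinusoidal endothelium were lower. For stellate cells 1 of 5 was higher, as was the 1 tested adipocyte marker. None of the 5 neutrophil, 5 monocyte or 4 tested cholangiocyte markers passed, although all 5 neutrophil markers had groups that did not overlap. The part of these shifts was not tested.

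Against the control group, 5 of the 9 genes were lower in the LGK974 group (Srebf1, Acaca, Elovl6, Me1 and Acly) and 0 were higher, beside 17.7% and 16.4% of all tested genes (34.1% in either direction). The counts were 5 and 0 with DESeq2 also, and 5 and 0 at an unadjusted p below 0.05 in edgeR (44.6% of all genes in either direction). The median log2 difference was −0.69 over the 9 genes and 0.02 over all genes. Groups did not overlap for 6 of 9 genes (68.1% of all genes). Srebf1, Acaca and Elovl6 passed in all 15 alternatives, Me1 in 13 and Acly in 11. Both Me1 and Acly lost the call without either control library (edgeR adjusted p = 0.12 and 0.075 for Me1, and 0.142 and 0.148 for Acly). Acly also lost it without LGK974 library 1 (edgeR adjusted p = 0.0745) and in the 2-group fit (0.0593). Over all alternatives these ranged from 0.00191 to 0.12 for Me1 and from 0.00534 to 0.148 for Acly. Acaca, Acly and Me1 thus lay between the other groups in the LGK974 libraries, Gpam lay near the control level, Srebf1 near the endotoxemic level, and Elovl6 below both.

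**Figure D2:**
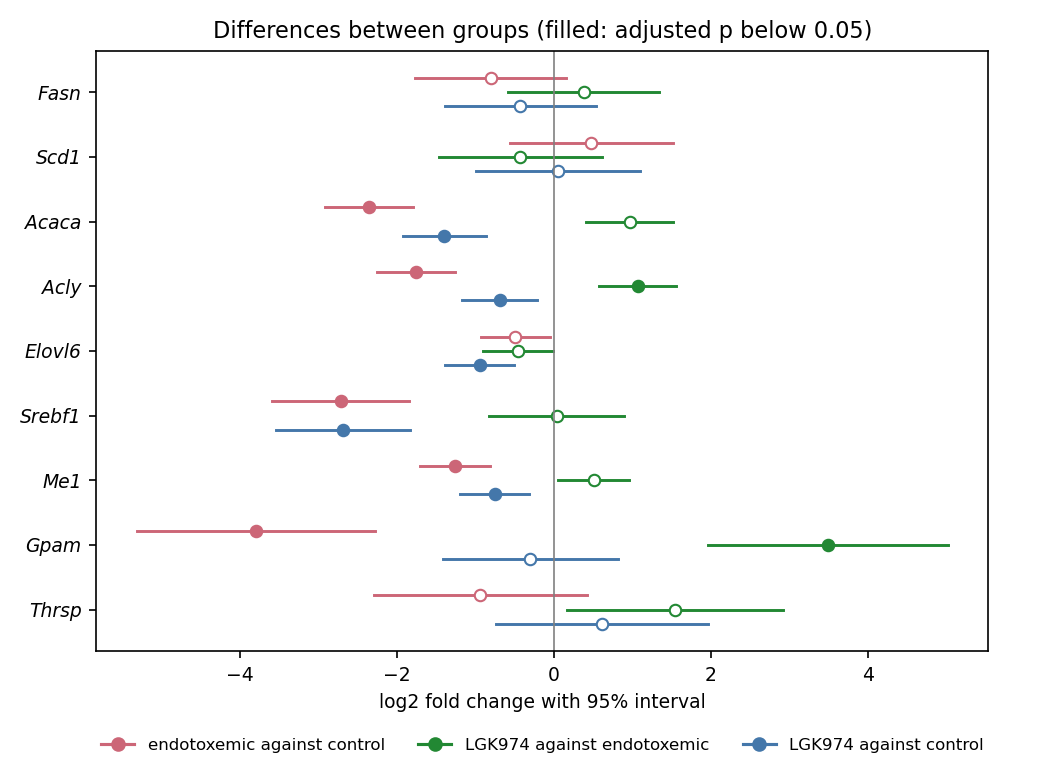
Log2 fold change (points) with 95% intervals (lines) of the 9 tested genes in the 3 comparisons, with filled points for genes that passed the threshold on the adjusted p; Gpam entered the test only through the groups in which it was high. Srebf1 has nearly the same difference from the control group in endotoxemic and LGK974 libraries (−2.71 and −2.68), and the intervals of Fasn, Scd1 and Thrsp include 0 in every comparison except LGK974 against endotoxemic for Thrsp.

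The 2 LGK974 libraries differed from each other in a subset of these genes. Library 1 exceeded library 2 by 5.85-fold for Thrsp, 3.37-fold for Scd1 and 3.22-fold for Fasn. Each of the 3 ratios lay above 3.07, the 95th percentile of the ratio between the higher and lower LGK974 library (median 1.33). That percentile was taken over the 11594 tested genes with a mean above 1 CPM in the LGK974 group, and those of the other groups likewise. The same 3 genes differed by at most 1.46-fold within the control group and within the endotoxemic group, where the 95th percentiles were 2.11 and 2.09. Srebf1 differed by 2.13-fold between the LGK974 libraries, in the same direction. Acly, Me1 and Elovl6 differed by 1.29-, 1.23- and 1.13-fold, with library 2 the higher one, and Acaca and Gpam by 1.19- and 1.03-fold. Other features split the same pair of libraries: ribosomal Rn45s took 4.80% of the counts of library 1 and 9.38% of library 2, the lowest and highest share of the 6 libraries; the hepatocyte marker Tat was at 683 and 179 CPM; and 5 cholangiocyte markers summed to 29.6 and 72.5 CPM, mostly from Sox9 (24.6 and 71.3 CPM). Tat was also far apart within the endotoxemic group (511 and 181 CPM in libraries 1 and 2). The part of these features in the differences between the LGK974 libraries was not tested. The summed level of the 10 genes was 2011 CPM in LGK974 library 1 and 655 CPM in library 2, against 1150 to 1500 CPM in the control and endotoxemic libraries.

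Because of this split, the group means of Fasn, Scd1 and Thrsp in the LGK974 group (150 ± 112, 742 ± 569 and 289 ± 289 CPM, SD, n = 2) described neither library. Without LGK974 library 1, Fasn was lower in the LGK974 than in the endotoxemic group (log2 difference −0.70, edgeR adjusted p = 0.0208), as was Scd1 (−1.55, edgeR adjusted p = 0.000539). Without library 2, Fasn was higher (0.99, edgeR adjusted p = 0.00314), as was Thrsp (2.32, edgeR adjusted p = 3.57e-06). Over all alternatives the adjusted p of this comparison ranged from 0.00314 to 0.829 for Fasn, from 0.000539 to 0.948 for Scd1 and from 1.71e-08 to 0.465 for Thrsp. The direction of these 3 genes against the endotoxemic group changed with the LGK974 library that was kept.

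Among 120 other tested genes of the pathway, 7 (5.83%) exceeded the 95th percentile between the LGK974 libraries, which is close to the share that this percentile sets over the genes it was taken from. These 7 are therefore given as values only. Mid1ip1, the partner protein of Thrsp that promotes the polymerization of acetyl-CoA carboxylase, was at 73.7 CPM in library 1 and 20.7 CPM in library 2. Library 1 was also higher for Irs1 (5.58-fold), an adaptor of the insulin receptor, for the pyruvate dehydrogenase kinase gene Pdk4 (5.33-fold), for Igfbp1 (4.77-fold), which insulin represses, and for the droplet protein gene Cidec (3.12-fold). Library 2 was higher for the acyltransferase gene Gpat3 (6.21-fold) and for Pfkfb1 (3.59-fold). Adipocyte markers, whose tissue also expresses Fasn, Scd1 and Thrsp, summed to 3.47 CPM in library 1 and 9.47 CPM in library 2, and their part in the difference was not tested. Only 1 of the 6, Cfd, passed the filter (2.42 and 7.17 CPM), and Plin1 had 2 and 0 counts and Lep 0 and 0 counts in the LGK974 libraries.

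**Figure D3:**
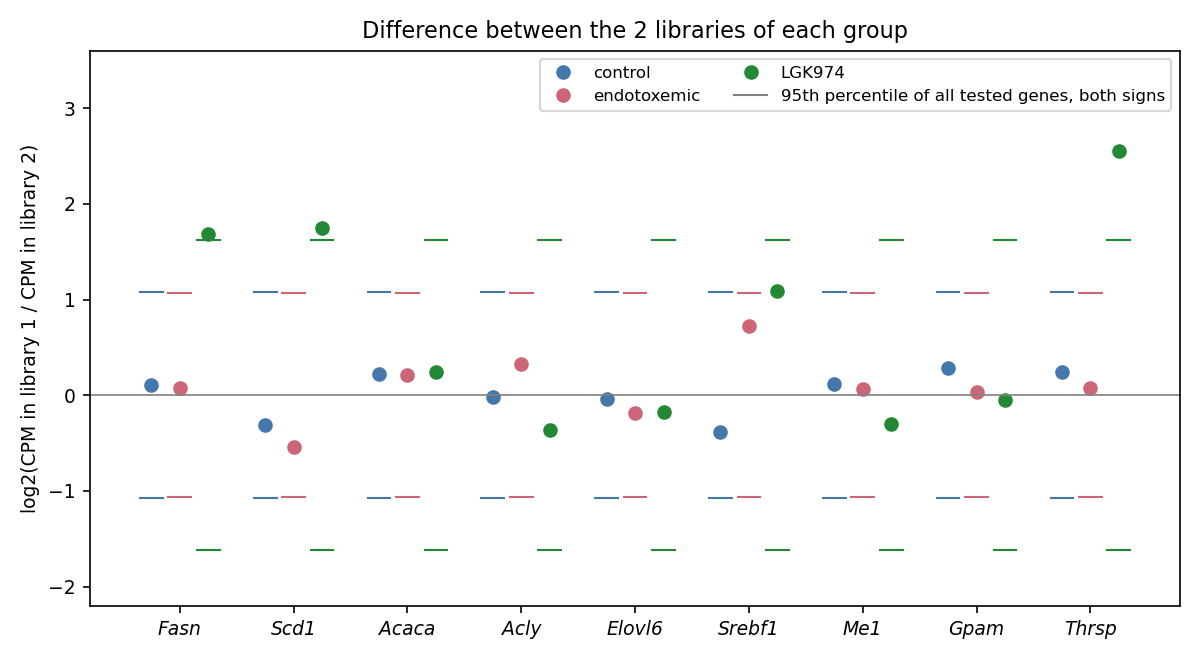
Log2 ratio of library 1 to library 2 within each group for the 9 tested genes. Short lines mark the 95th percentile of the ratio over tested genes with a mean above 1 CPM in that group, drawn on both sides of 0. Thrsp, Scd1 and Fasn lie outside the lines in the LGK974 group (5.85-, 3.37- and 3.22-fold) and no gene does in the control or endotoxemic group.

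The wider pathway was described through 126 further genes in 6 lists, of which 120 were tested. In the endotoxemic group 63 fell and 19 rose (median log2 fold change −0.81), and for LGK974 against control libraries 49 passed downward and 13 upward (median −0.58). For LGK974 against endotoxemic libraries, 14 passed upward and 6 downward (median 0.31), but without either endotoxemic library these became 2 and 0, so the calls named below for this comparison, other than that of G0s2, each need at least 1 particular endotoxemic library. The percentages of all genes given above for each comparison and direction apply to these counts as well.

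Of 21 tested genes of fatty acid synthesis and modification, 14 fell and 1 rose in the endotoxemic group. The falls include Elovl3 (49 and 48 control counts, 9 and 1 with LPS), which the filter kept through the groups in which it was high, so its call is not counted as support. Acsl1, which activates long-chain fatty acids, fell 38.9-fold, from 700 ± 50.4 to 18.0 ± 2.75 CPM (SD, n = 2; edgeR adjusted p = 1.68e-06), and was 2.86-fold higher in the LGK974 than in the endotoxemic group (edgeR adjusted p = 0.00931). Acacb, the mitochondrial-surface carboxylase, fell by 2.67 on the log2 scale (edgeR adjusted p = 0.00144), close to Acaca. Hsd17b12, an enzyme of the elongation cycle, was the 1 gene that rose (log2 fold change 0.93, edgeR adjusted p = 0.00559). Against the control group, LGK974 libraries were lower for 9 and higher for 1, the former including the elongase gene Elovl2 (log2 fold change −2.45) and the desaturase gene Fads1 (−2.03), and 2 were higher than in the endotoxemic group, Acsl1 and Acsl4 (0.85, edgeR adjusted p = 0.0428).

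Among 17 tested genes that supply acetyl-CoA, citrate and NADPH, 9 fell and 2 rose with LPS. Idh1, the cytosolic isocitrate dehydrogenase that yields NADPH, fell from 521 ± 53.4 to 81.4 ± 0.561 CPM (SD, n = 2) and reached 191 ± 6.72 CPM in the LGK974 group, higher than in the endotoxemic group by 1.23 on the log2 scale (edgeR adjusted p = 0.00931). Pdk2, a kinase that restrains pyruvate dehydrogenase, fell by 5.25 on the log2 scale (edgeR adjusted p = 1.58e-05) and was also higher in the LGK974 than in the endotoxemic group (1.78, edgeR adjusted p = 0.0365). Acss2, which makes acetyl-CoA from acetate, was lower in the endotoxemic (log2 fold change −2.41) and LGK974 (−2.21) groups alike. The 2 genes that rose, G6pdx and Pgd, belong to the oxidative pentose phosphate pathway (log2 fold changes 1.59 and 0.68, edgeR adjusted p = 0.035 and 0.0457), G6pdx from 9 and 35 control counts.

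Of the 10 genes through which sugar enters the pathway, 7 fell and 2 rose with LPS. The glucose transporter gene Slc2a2 fell from 302 ± 37.8 to 3.56 ± 0.246 CPM (SD, n = 2; log2 fold change −6.40, edgeR adjusted p = 6.29e-07) and was also low in the LGK974 group (−5.95 against the control group). Pfkfb1, the liver form of the bifunctional regulator of glycolysis, fell by 2.62 on the log2 scale (edgeR adjusted p = 0.00444). The 2 genes that rose were Pfkfb3, the inducible form of the same regulator, by 5.12 and Pfkl, a phosphofructokinase of glycolysis, by 1.83 on the log2 scale. In the LGK974 group Pfkl was lower than in the endotoxemic group (−1.41, edgeR adjusted p = 0.0187), whereas Tkfc of the fructose pathway was higher (1.78, edgeR adjusted p = 0.0154).

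Of 26 tested genes of triglyceride synthesis and lipid droplets, 14 fell and 5 rose with LPS. The monoglyceride lipase gene Mgll (log2 fold change −4.75), the phosphatidate phosphatase gene Lpin2 (−3.54) and the droplet protein gene Plin5 (−3.51) fell most among them, and the droplet gene Plin2 (1.05) was among those that rose. The call of Cidec (26 and 6 control counts, 124 and 141 with LPS) also came from a gene kept by the filter through the groups in which it was high. For LGK974 against endotoxemic libraries, 6 of the 26 passed upward, beside 2.80% of all genes. Plin5 was 7.49-fold higher (edgeR adjusted p = 0.00399), G0s2, which inhibits adipose triglyceride lipase, was 5.53-fold higher (edgeR adjusted p = 0.000656) and Mgll was 4.64-fold higher (edgeR adjusted p = 0.0142). Dgat2, which makes the last bond of a triglyceride, was lower in the LGK974 than in the control group (−2.27, edgeR adjusted p = 0.000102).

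Among 31 tested regulators, 15 fell and 5 rose with LPS, the rises including Pparg on a row out of genomic order. Ppargc1b, a coactivator of SREBP-1, fell by 4.11 (edgeR adjusted p = 1.5e-05) and the insulin- and fasting-responsive factor gene Klf15 by 2.98 on the log2 scale (edgeR adjusted p = 2.1e-05). Mlxipl, which encodes ChREBP, was at 57.8 ± 3.50 CPM in the control, 13.3 ± 0.449 CPM in the endotoxemic and 11.3 CPM in the LGK974 group on average, lower than in the control group with LPS (−2.12, edgeR adjusted p = 7.19e-05) and with LGK974 (−2.35, edgeR adjusted p = 5.35e-05). Srebf2, the paralog that drives cholesterol synthesis, rose in the endotoxemic group (0.89, edgeR adjusted p = 0.0211) and in the LGK974 group (0.89, edgeR adjusted p = 0.0253), opposite to Srebf1. In the LGK974 group, Insig1, which retains SREBP in the endoplasmic reticulum (0.83), and Prkaa2, a catalytic subunit of AMP-activated kinase (1.87), were higher than in the endotoxemic group, and Nfyb, a subunit of NF-Y (−1.09), and Trib1 (−1.25) were lower.

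Of 15 genes of insulin signalling, 4 rose and 4 fell with LPS, the rises including Akt1 on a row out of genomic order. Socs1 and Socs3, cytokine-induced suppressors that also act on the insulin receptor pathway, rose in the endotoxemic group, Socs3 by 3.61 on the log2 scale and Socs1 from 17 and 7 counts, too low for the filter in the control group alone, to 1538 and 1005. Socs1 was lower in the LGK974 than in the endotoxemic group (−1.94, edgeR adjusted p = 0.0284), together with Irs2 (−1.27, edgeR adjusted p = 0.0485) and Ptpn1, an insulin receptor phosphatase (−0.94, edgeR adjusted p = 0.0289). In the lists as a whole, 2 named genes sat on rows out of genomic order, and their values depend on which row is read. As deposited, Pparg differed by 1.56 and Akt1 by 3.65 on the log2 scale between endotoxemic and control libraries; with rows reassigned by genomic order these were −2.41 (edgeR adjusted p = 0.00523) and 0.04 (edgeR adjusted p = 0.917), and the counts over all further pathway genes became 17 higher and 65 lower.

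**Figure D4:**
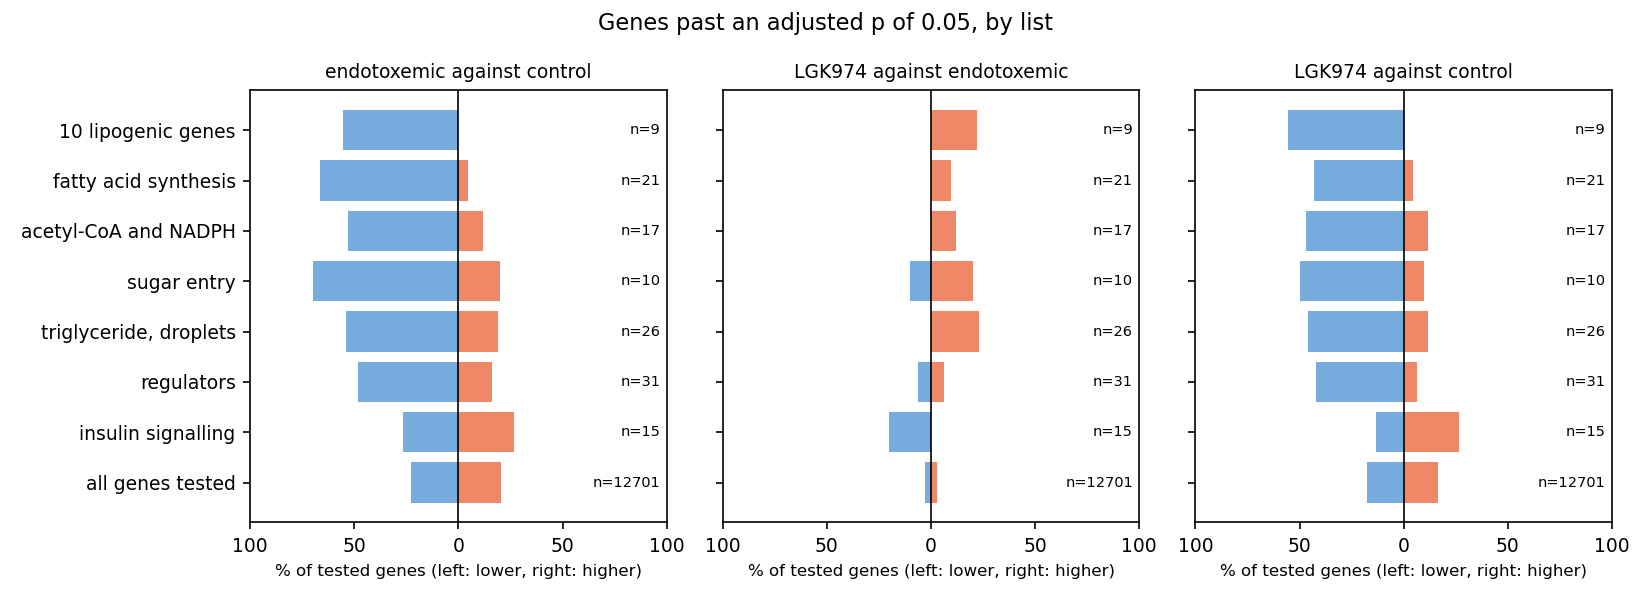
Percentage of tested genes that were lower (left) or higher (right) in each comparison, for the 10 lipogenic genes, the 6 further lists and all 12701 genes tested; n is the number tested, Gpam included. Falls in the endotoxemic group run from 4 of 15 genes of insulin signalling to 7 of 10 of sugar entry, beside 23.0% of all genes.

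**Figure D5:**
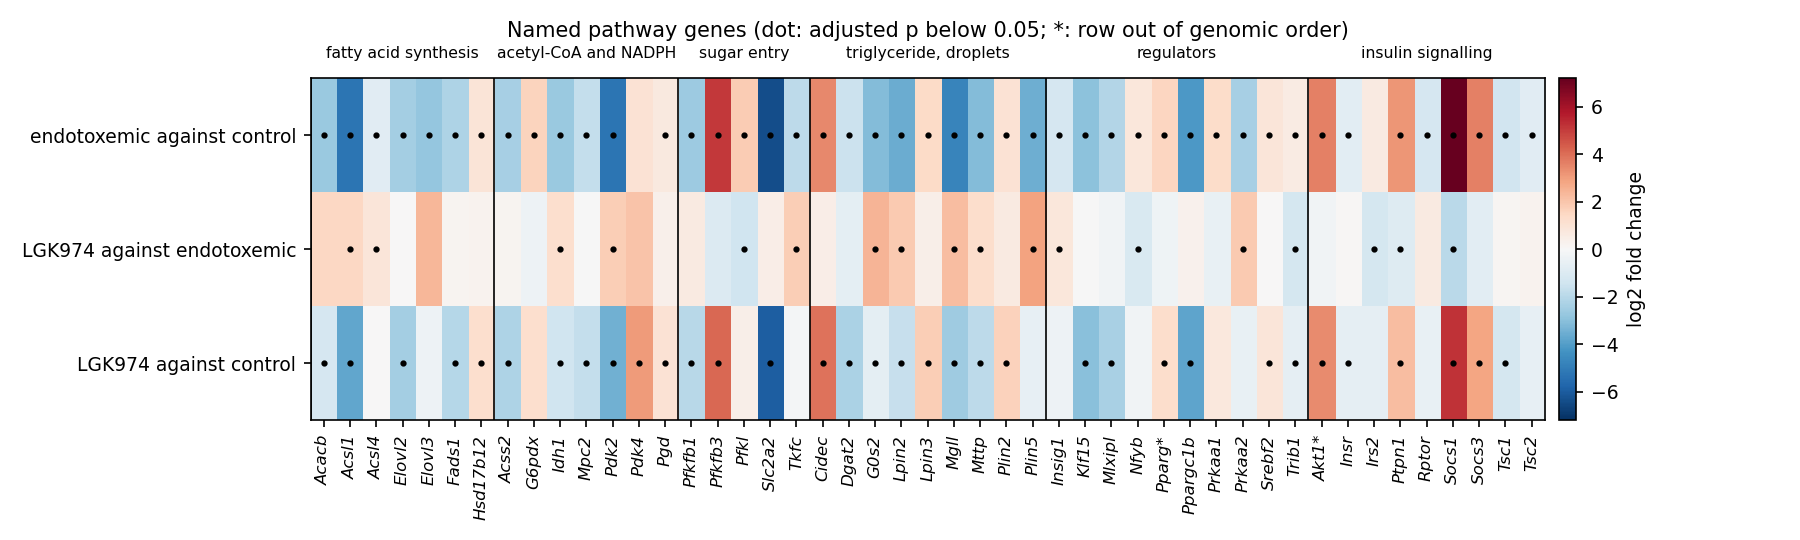
Log2 fold change of the named pathway genes (colour, red higher and blue lower) in the 3 comparisons, grouped by list; dots mark genes that passed the threshold and asterisks the 2 genes on rows out of genomic order. Slc2a2, Acsl1 and Pdk2 are deep blue against the control group in both treated groups, and Socs1 is the darkest red in the endotoxemic group.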

How the data were processed

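The authors deposited 1 table of raw read counts per library, with 1 row per gene symbol, made from Lexogen QuantSeq 3′ libraries of liver total RNA; their processing notes name Bowtie2, edgeR and mm10, without versions, and how reads were counted, with or without strand, is not given in the sources used here. Libraries identical on every row were counted once. Genes were kept by filterByExpr (minimum count 10), counts were normalized by TMM, and 1 edgeR (4.0.16, R 4.3.3) quasi-likelihood model with the 3 groups and no covariate was fitted to 6 libraries and 12701 genes, with Benjamini-Hochberg adjustment over all genes and a threshold of 0.05. The common biological coefficient of variation was 0.239. Intervals of single ratios are exact conditional intervals from summed counts at 95% and cover counting error only.

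The members and lists were chosen with earlier results of these data known. Besides the 10 members, up to 3 largest rises and falls per list and comparison were named, among genes that passed and whose groups did not overlap; a gene singled out for its spread between the LGK974 libraries was chosen after its values were seen. Symbols were placed in order by RefSeq gene positions, whereas the coordinates and overlaps of the 10 genes came from GENCODE M21 (GRCm38). Alternatives were DESeq2 (1.42.0), other size factors, other filters, identical libraries counted separately, 2-group fits, a replicate block, rows out of order left out or reassigned, and each library left out. The procedure was tested on simulated counts. Some genes that this rule names are not reported here.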

Additional observations from a re-analysis of the deposited data

How the results depend on the processing

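The number of lipogenic genes that passed, Gpam included, changed with the processing in every comparison. For LGK974 against endotoxemic libraries, 2 were higher in the fit reported; the number was 4 without a filter on low counts, 1 with at least 10 counts in every library (Gpam is then untested), 4 with the identical endotoxemic libraries counted separately, 0 with only these 2 groups fitted, and 0 to 5 with a library left out. The number lower, 0 as reported, was 2 with the identical libraries counted separately (Elovl6 and Pnpla3) and 0 to 2 with a library left out. Against the control group the number higher, 0 as reported, was 1 without the filter (Thrsp) and 0 to 2 with a library left out, and the number lower, 5 as reported, was 3 to 7 with a library left out. For endotoxemic against control libraries, the 2-group fit gave 8 lower and 1 higher, and the number lower was 7 without the filter, 6 with identical libraries counted separately and 4 with at least 10 counts in every library. Counting the identical libraries separately treats copies as replicates.

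Over all genes, 356 higher and 358 lower in the LGK974 than in the endotoxemic group became 881 and 824 without the filter, 600 and 627 with DESeq2, 1711 and 1548 with identical libraries counted separately, 107 and 162 with only these groups fitted, and 23 to 1175 and 26 to 1067 with a library left out. With a library left out, 2595 higher and 2918 lower in the endotoxemic group became 1517 to 1729 and 1801 to 2008, and 2081 higher and 2247 lower in the LGK974 than in the control group became 1041 to 2608 and 1331 to 2761. For the other pathway genes in the LGK974 against the endotoxemic group, 14 higher and 6 lower became 23 and 11 without the filter, 35 and 11 with identical libraries counted separately, 8 higher with only these groups fitted, and 2 to 25 and 0 to 15 with a library left out; the 19 higher with LPS became 10 to 13. The cause of these shifts was not tested.

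Directions turned for Fasn (LGK974 against endotoxemic −0.70 to 0.99, against control −1.50 to 0.19), Scd1 (−1.55 to 0.20 and −1.07 to 0.68), Thrsp (−0.23 to 2.32 and −1.16 to 1.39) and, against the endotoxemic group, Srebf1 (−0.60 to 0.48) when single libraries were left out, and for Pparg with rows reassigned (−2.41 with LPS, −1.33 for LGK974 against control). Replicate numbers are only shared between groups: deviations of same-numbered libraries correlated at 0.18, −0.01 and 0.06. With a replicate block no lipogenic gene gained or lost a call, and Scd1, LGK974 against control, turned from 0.05 to −0.04. Among single-gene values of the lipogenic genes under settings other than leaving out a single library, 276 kept direction and call, 14 gained a call, 3 lost one (in the 2-group fits) and 1 turned.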
